A study of Homo sapiens with 2 samples.

Results

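The splicing factor genes described here are 62 of the 20033 protein-coding genes of GENCODE release 44. They were chosen by gene symbol: the SR proteins (symbols opening with SRSF and a number), the Sm and snRNP proteins (SNRP and a letter from A to G, without SNRPN), the SF3 subunits (SF3A and SF3B), the hnRNP proteins (HNRNP) and the U2AF proteins. The symbol rule itself uses no measured value. Of the 160327 accessible regions in the peak list, 110 belonged to these genes: 80 had a summit within 1 kb of an annotated transcript start (start regions), and 30 lay inside a gene and away from every start of it (body regions). Nearest to this 1 kb limit were a start region of SNRPD2, 912 bp upstream of its start, and a body region of HNRNPD, 1144 bp upstream of the nearest start.

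The study measured chromatin accessibility by ATAC-seq, in which a transposase cuts and tags open DNA, in the human embryonic stem cell line H1. The cells had been frozen, and after thawing they were treated with DNase I and purified on Ficoll before transposition by the Omni-ATAC protocol. There were 2 samples of this 1 group, numbered as replicates, and no untreated, mutant or other group. Both samples share 1 peak list, so that no value per library was available, no spread between replicates could be computed and no comparison between conditions was possible. Whether they were grown as separate cultures is not stated in the labels.

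Introns are removed from pre-mRNA by the spliceosome, which is built from small nuclear ribonucleoproteins (snRNPs). U1 snRNP reads the 5′ splice site, the U2AF proteins read the 3′ splice site, and U2 snRNP with its SF3 subunits takes hold of the branch site. SR proteins mostly bind exons and favour their inclusion, and hnRNP proteins often act against it. Many of these genes hold a poison exon, an exon whose inclusion brings in an early stop codon and sends the mRNA to nonsense-mediated decay (NMD), and in this way the proteins limit their own amounts.

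The stretches below come from the promoters of the member with the highest start fold in each family, and show DNA upstream of the RefSeq transcript start (RefSeq, GRCh38.p14). Each is written 5′ to 3′ on the gene's own strand. The stretches leave out bases that an annotated exon covers, which for SRSF7 left only the 39 bases next to its start, because the first exon of GEMIN6 on the opposite strand covers the rest. The stretch of SNRPB ends 65 bp before its RefSeq start, because an annotated exon of SNRPB covers the bases between. Capitals mark letters of the motifs searched for: GGGCGG or CCGCCC (GC box), CCAAT (NFY), TGACGT or ACGTCA (cAMP response element, CRE), CACGTG (E box) and GCGCATGC (NRF1). Overlaps between motifs were allowed.
SNRPB, chr20:2470854-2471039, minus strand: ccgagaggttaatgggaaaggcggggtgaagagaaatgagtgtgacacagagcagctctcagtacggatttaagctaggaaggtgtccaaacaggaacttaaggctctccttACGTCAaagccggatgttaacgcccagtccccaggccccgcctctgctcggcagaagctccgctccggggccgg
U2AF1, chr21:43107571-43107820, minus strand: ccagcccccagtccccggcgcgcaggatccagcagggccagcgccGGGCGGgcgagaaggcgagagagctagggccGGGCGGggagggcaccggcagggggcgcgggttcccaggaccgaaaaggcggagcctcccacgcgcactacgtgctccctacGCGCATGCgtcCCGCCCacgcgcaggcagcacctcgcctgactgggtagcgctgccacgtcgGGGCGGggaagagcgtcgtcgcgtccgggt
SF3B5, chr6:144095574-144095823, minus strand: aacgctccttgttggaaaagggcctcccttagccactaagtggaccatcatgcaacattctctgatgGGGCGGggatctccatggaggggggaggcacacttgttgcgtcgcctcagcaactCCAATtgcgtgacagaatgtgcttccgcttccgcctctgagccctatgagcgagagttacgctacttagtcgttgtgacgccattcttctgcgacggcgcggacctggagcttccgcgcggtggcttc
SRSF7, chr2:38751495-38751533, minus strand: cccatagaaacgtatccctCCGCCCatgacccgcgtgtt
HNRNPH2, chrX:101408013-101408221, plus strand: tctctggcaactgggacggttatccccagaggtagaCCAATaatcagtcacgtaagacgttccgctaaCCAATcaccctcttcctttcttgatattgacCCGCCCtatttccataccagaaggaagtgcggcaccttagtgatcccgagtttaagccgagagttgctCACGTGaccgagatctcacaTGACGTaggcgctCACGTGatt

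In each of these 5 promoters the summit of the strongest start region, the base of highest signal, falls inside the printed stretch. It lay 103 bp before the RefSeq start of SNRPB, 45 bp before that of U2AF1, 160 bp before that of SF3B5, 37 bp before that of SRSF7 and 144 bp before that of HNRNPH2. The HNRNPH2 promoter carries CCAAT letters 141 bp before its start, next to its summit. Such letters are common. In windows of the same 250 bases (some genes have several), the GC box letters were in 52.6% of 76 windows of splicing factor genes and in 42.6% of all 35116 RefSeq windows, which include non-coding genes. CCAAT was in 38.2% of the splicing factor windows and 32% of all windows, and the CRE letters in 14.5% of the splicing factor windows and 7.10% of all. The E box letters were in 11.8% of the splicing factor windows and 6.34% of all, and the NRF1 letters in 7.89% of the splicing factor windows and 2.63% of all. CCGGAAG, the core of ETS factor sites, was in 27.6% and 8.52%. At SNRPB it lies 41 bp before the start, in bases left out above. TCTCGCGA was in 3.95% and 1.03%, and ACTACAA in 2.63% and 2.47%. Less frequent than in all windows were TATAAA (9.21% and 10.7%), AAGATGGC (1.32% and 1.36%) and ATGCAAAT (0 and 1.63%).

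At least 1 start region was present at 56 of the 62 splicing factor genes, or 90.3% (95% exact binomial interval 80.1 to 96.4%), against 81.1% of all protein-coding genes (16254 of 20033). The strength of a region is given as its fold enrichment, which is the authors' own value for each peak and is used here only to describe and rank regions within the 1 list. A gene takes the value of the strongest summit within 1 kb of any of its annotated starts, here called its start fold, and a gene with no such region has 0. The median start fold was 10.3 for splicing factor genes (rank interval 9.07 to 11.4) and 8.48 for all protein-coding genes; among genes with a region the medians were 10.6 for splicing factor genes and 9.71 for all. The start fold was above the median of all genes at 45 of 62 members, and above their 90th percentile (14.8) at 7 members, or 11.3%, against 10.0% of all genes. In a bulk sample, a region open in fewer cells and a region less open in each cell cannot be told apart.

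The H1 label was set against marker genes: all 9 stem cell markers examined had a start region (median start fold 6.64, with 9.48 at NANOG and 5.54 at POU5F1, and 3 of 9 above the median of all genes). Of 16 markers of neural, fibroblast, endoderm, mesoderm and blood cells, 13 also had one (81.25%, against 81.1% of all protein-coding genes). The median start fold of the 16 was 4.69, and the blood genes PTPRC, SPI1 and CD14 had none. Start regions were thus not limited to genes that mark stem cells. Over all 160327 regions the median fold was 5.38 and the median width 447 bp. The sequencing depth behind the list was not given in the sources used here.

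**Figure D1:**
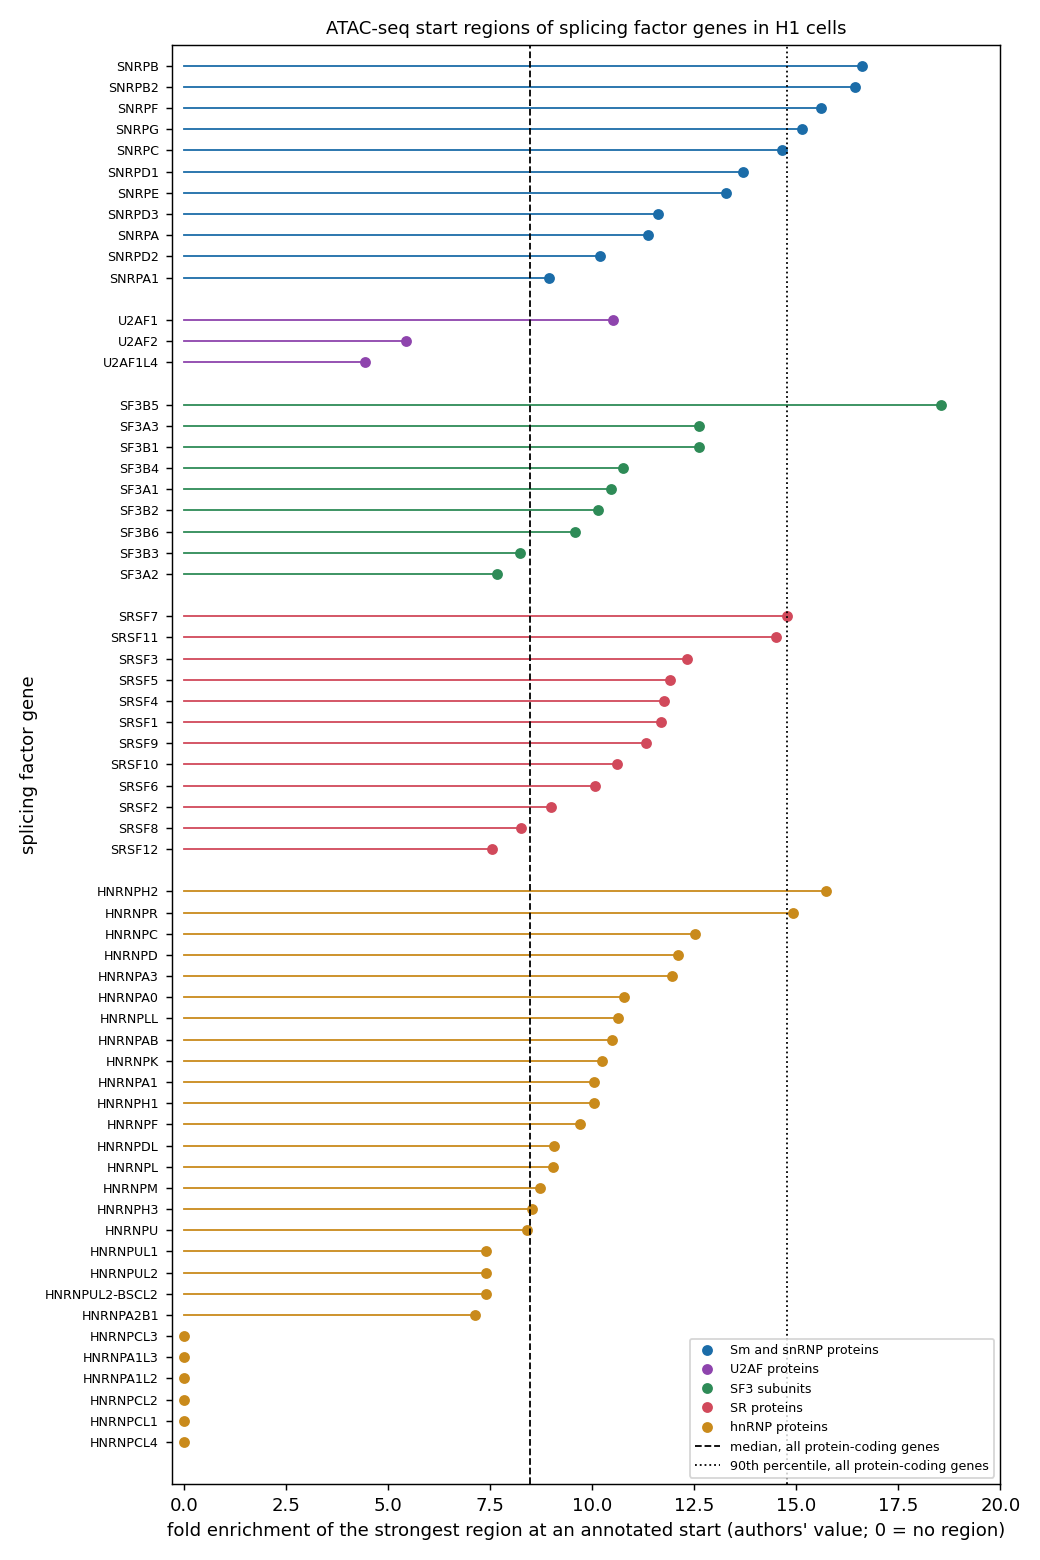
Start fold (authors' fold enrichment, x axis) of each of the 62 splicing factor genes (y axis), 1 point a gene, ordered within the 5 families. The dashed line is the median of all protein-coding genes (8.48) and the dotted line their 90th percentile (14.8); all 11 Sm and snRNP genes lie right of the dashed line (with a window of 500 bp SNRPD3 would lie left of the median, at 4.97), and 6 hnRNP copies lie at 0.

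The Sm and snRNP genes had the highest start folds of the 5 families, with a median of 13.7, and all 11 were above the median of all genes; with a window of 500 bp in place of 1 kb, SNRPD3 had 4.97 and fell below it (8.19 with that window). SNRPB, which encodes the SmB protein of the ring that encircles the snRNAs, led with 16.6 in a region of 835 bp with 2 summits (chr20:2470414-2471248, −log10 p of 221). SNRPB2, a protein of U2 snRNP, had 16.4 in a region of 978 bp whose summit lay 4 bp downstream of the nearest annotated start. Other Sm ring genes were close behind: SNRPF had 15.6, with its strongest summit 102 bp upstream in a region of 961 bp with 3 summits, and SNRPG had 15.1. Of the remaining Sm ring genes, SNRPD1 had 13.7, SNRPE 13.3, SNRPD3 11.6, with its summit 670 bp upstream of the nearest start, and SNRPD2 10.2. U1 snRNP was represented by SNRPC with 14.6 and SNRPA with 11.4. The lowest of the family was SNRPA1, the partner of SNRPB2 in U2 snRNP, with 8.95 in a region of 1072 bp with 4 summits. These regions were narrower than those of the other large families, with a median width of 947 bp.

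The U2AF genes spread widely. U2AF1, the subunit that reads the AG at the end of the intron, had 10.5 in a region of 991 bp with 3 summits (chr21:43107025-43108015). U2AF2, the subunit that binds the pyrimidine tract before it, had 5.45; its region was among the broader ones, 1489 bp with 5 summits, and its strongest summit lay 382 bp downstream of the nearest annotated start, which is upstream of the canonical one. U2AF1L4, a paralogue of U2AF1, had the lowest start fold of all members with a region, 4.43, in a single-summit region of only 364 bp. Of all protein-coding genes, 25.4% had a lower start fold than U2AF1L4 and 30.5% a lower one than U2AF2.

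All 9 SF3 genes had a start region, with a median start fold of 10.5. SF3B5, a small SF3b subunit encoded by a single exon, had the highest start fold of all 62 members, 18.5, in a region of 998 bp with 2 summits (chr6:144095005-144096002, −log10 p of 632). Of all protein-coding genes 98.2% had a lower one. SF3A3 and SF3B1 followed with 12.6 each; SF3B1 is the large subunit that contacts the branch site. The remaining SF3b genes were SF3B4 with 10.7, SF3B2 with 10.1, SF3B6 with 9.58 and SF3B3 with 8.22. SF3A1 had 10.5, and SF3A2 was the lowest with 7.68, its summit 444 bp upstream of the nearest start in a region of 1115 bp.

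All 12 SR protein genes had a start region as well, with a median start fold of 11.5 and a median width of 1261 bp, each with several summits. SRSF7 was the highest with 14.8, just under the 90th percentile of all genes, in a region of 1279 bp with 4 summits whose strongest lay 37 bp upstream. SRSF11 had 14.5, SRSF3 12.3, SRSF5 11.9 and SRSF4 11.8. SRSF1, the founding member of the family, had 11.7, SRSF9 11.3, SRSF10 10.6 and SRSF6 10.1. SRSF2, a binder of exonic enhancers, had 8.99. The lowest were SRSF8, a retrogene of SRSF2, with 8.26, and SRSF12 with 7.54, whose summit lay 221 bp downstream of the nearest annotated start in a region of 1271 bp. Of the 12, 10 were in the upper 2 of 10 bins (deciles) of all genes by CpG content at the start.

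The hnRNP family was the most uneven: 21 of 27 genes had a start region, with a median start fold of 10.0 among those 21 and of 9.04 over all 27. HNRNPH2, a binder of G-rich RNA, had 15.7 in a region of 1174 bp with 3 summits (chrX:101407578-101408751), and HNRNPR had 14.9. Both were above the 90th percentile of all genes. Values between 10.2 and 12.5 were found at HNRNPC, a binder of uridine tracts (12.5), HNRNPD, a binder of AU-rich elements (12.1), HNRNPA3 (12), HNRNPA0 (10.8), HNRNPLL (10.6), HNRNPAB (10.5) and the C-rich binder HNRNPK (10.2). HNRNPA1, the best studied antagonist of SR proteins, and HNRNPH1 had 10.1 and 10.0. Lower values were found at HNRNPF (9.71), HNRNPDL (9.07), the CA-repeat binder HNRNPL (9.04), HNRNPM (8.73), HNRNPH3 (8.53) and the nuclear scaffold protein gene HNRNPU (8.40).

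The lowest hnRNP genes with a region were HNRNPUL1 and HNRNPUL2, with 7.40 each, and HNRNPA2B1 with 7.13. The region of HNRNPA2B1 was the broadest at any member's strongest start, 1768 bp with 5 summits (chr7:26200590-26202357), and it also covers the start of CBX3 on the opposite strand. HNRNPUL2-BSCL2, a readthrough transcript annotated as a gene of its own, shares its start region of 1369 bp and 3 summits with HNRNPUL2. Its 7.40 is therefore the same measurement and no further case, although the counts of members given here include both genes.

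The 6 genes with no region at any start were all hnRNP copies: HNRNPCL1, HNRNPCL2, HNRNPCL3 and HNRNPCL4, which lie near each other on chromosome 1, HNRNPA1L2 on chromosome 13 and HNRNPA1L3 on chromosome 16. Their starts were poor in CpG, with a median observed to expected ratio of 0.348, against 0.887 for the 56 other members. Of the 970 words of 32 bases around the start, 97.5% occurred elsewhere in the genome for HNRNPCL4, 96.7% for HNRNPCL3, 56.4% for HNRNPCL2, 52.3% for HNRNPCL1 and 33.2% for HNRNPA1L2, but none for HNRNPA1L3. How the authors treated reads that match several places is not given in the sources used here, and its part in the missing regions was not tested. At U2AF1, 85.8% of the words occurred again on chromosome 21, and the copy carries a region of its own (chr21:6498971-6500265, fold 8.94). Reads of U2AF1 and of this copy could be split between the 2 places, so the fold of 10.5 at U2AF1 is uncertain. Among the other 55 members with a region the median share of such words was 0, and the highest was 27.3%, at SNRPG.

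Start regions of splicing factor genes were mostly broad and built of several summits. Their median width was 1184.5 bp, against 1074 bp over all protein-coding genes with a start region. More than 1 summit was listed at 54 of 56 (96.4%), against 80.6% of all genes with a region. The exceptions were HNRNPM and U2AF1L4. The strongest summit lay upstream of the nearest annotated start at 50 of 56 members (89.3%), against 74.8% of all genes, and the median position was 88 bp upstream against 46 bp upstream. It was within 200 bp of a start at 42 of 56 members (75.0%) and at 77.5% of all genes with a region. The strongest summit was also mostly upstream at cytosolic ribosomal protein genes (91.7%) and proteasome genes (91.5%) with a start region. At other core spliceosome genes the share was 84.9%, and at other splicing regulators 78.4%.

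The starts of splicing factor genes were rich in CpG. Start fold did not rise steadily with CpG content: over all genes its median was highest in decile 5, at 10.8, and was 9.13 in decile 10. The median CpG observed to expected ratio in 1 kb around the canonical start (the start of the transcript that GENCODE marks as canonical) was 0.884 for splicing factor genes and 0.725 for all protein-coding genes, and 35 of the 62 were in the upper 2 deciles. In deciles 6 to 10 all 49 members had a start region, against 98.4% of the 10016 genes there, and the median start fold was 10.2 against 9.83. In decile 10 alone, which held 24 members, it was 10.5 against 9.13. Over all deciles 36 of 62 members were above the median of their own decile. Decile 5 held 5 members, SNRPB2, HNRNPH2, SNRPF, SNRPE and SF3A3, and their median of 15.6 stood against 10.8 for the genes of that decile. Decile 6 also held 5 members and went the other way, with a median of 9.58 against 10.4 and 2 members above it. In decile 7, 2 of 4 members were above the median.

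**Figure D2:**
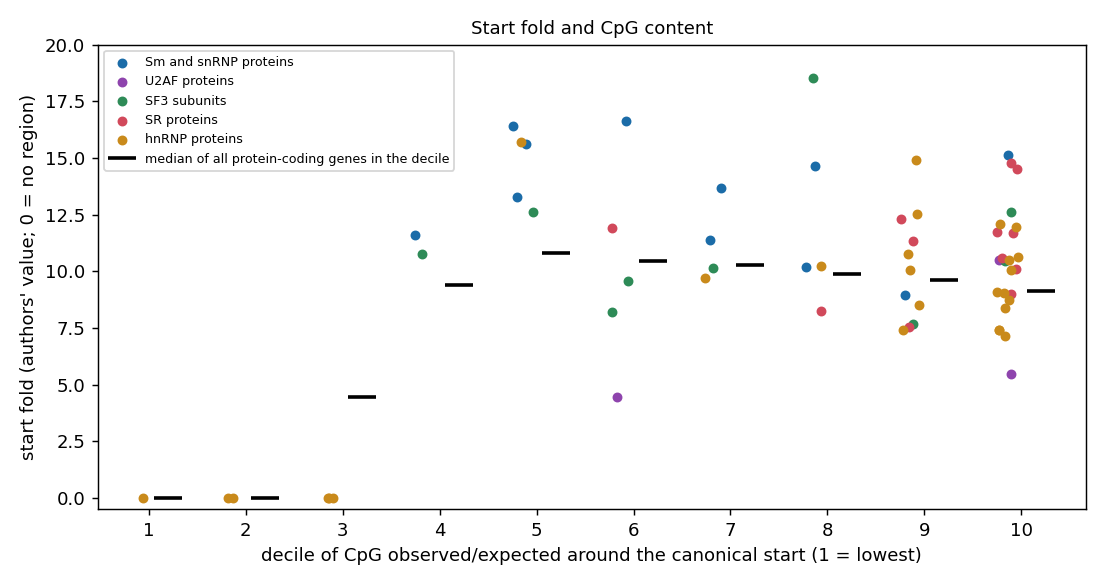
Start fold (authors' fold enrichment, y axis; 0 where no region is listed) of each splicing factor gene (coloured points) by decile of CpG observed to expected ratio at the canonical start (x axis, 1 lowest), beside the median of all protein-coding genes in that decile (black dashes). In deciles 1 to 3 the 6 members, all copies, lie at 0. In decile 10 the 24 members have a median of 10.5 against 9.13, and in decile 6 the 5 members have 9.58 against 10.4.

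Many of these starts face another gene. A protein-coding gene on the opposite strand started within 1 kb of the strongest summit at 19 of 56 members (33.9%), against 17.9% of all genes with a start region, so that a fold there belongs to both genes and cannot be assigned to either. Such pairs were SNRPA with ACTMAP, SNRPD2 with QPCTL, SNRPD3 with GUCD1, U2AF1L4 with PSENEN, SF3A1 with CCDC157, SF3A2 with PLEKHJ1, SF3B3 with COG4 and SF3B6 with FAM228B. SRSF2 faces MFSD11, SRSF7 faces GEMIN6 and SRSF9 faces DYNLL1. Among hnRNP genes the partners were CBX5 at HNRNPA1, CBX3 at HNRNPA2B1, ENOPH1 at HNRNPDL, GLA at HNRNPH2, PBLD at HNRNPH3, RMI1 at HNRNPK and TTC9C at HNRNPUL2 and its readthrough gene. GEMIN6, the partner of SRSF7, itself encodes a protein of the SMN complex, which loads Sm rings onto snRNAs. A facing protein-coding gene was also found at 31.4% of other core spliceosome genes and 27.7% of proteasome genes with a start region. The share was 21.4% for cytosolic ribosomal protein genes and 7.84% for other splicing regulators.

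The motif letters within 50 bp of the strongest start summit, on either strand, were counted beside those of all 16254 genes with a start region, and no test of the differences was possible. CCAAT was present at 19 of 56 members (33.9%), against 24% of all genes. Of these 19, 10 were hnRNP genes (HNRNPA0, HNRNPA1, HNRNPAB, HNRNPC, HNRNPH2, HNRNPK, HNRNPL, HNRNPLL, HNRNPR and HNRNPUL1) and 5 were Sm and snRNP genes (SNRPA, SNRPD2, SNRPD3, SNRPF and SNRPG). The GC box letters were present at 21 members (37.5%) and 47.3% of all genes. CCGGAAG, the core of ETS factor sites, was present at 9 members (16.1%, exact interval 7.62 to 28.3%) and 8.26% of all genes (within 100 bp, at 26.8%, interval 15.8 to 40.3%, and 13.6%), and 4 of these were Sm and snRNP genes: SNRPA1, SNRPB2, SNRPD1 and SNRPG. TGACGT was present at 7 members (12.5%) and 5.20% of all genes: SNRPB, U2AF1, U2AF1L4, SRSF5, HNRNPA1, HNRNPA3 and HNRNPK.

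The other motifs were rare. GCGCATGC was found at SRSF10 and U2AF1 (3.57%, against 2.09% of all genes), AAGATGGC, a YY1 motif, at SF3B3 and SF3B4 (3.57% against 0.984%), and CACGTG at HNRNPDL and HNRNPM (3.57% against 3.80%). TATAAA, the octamer ATGCAAAT, TCTCGCGA and the ZNF143 letters ACTACAA were at none of the 56, against 0.972%, 0.861%, 1.06% and 1.89% of all genes. None of the 11 motifs was found at 13 members, among them SRSF3, SRSF4, SF3B1 and HNRNPA2B1. A match shows letters only, and no factor's binding was measured.

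**Figure D3:**
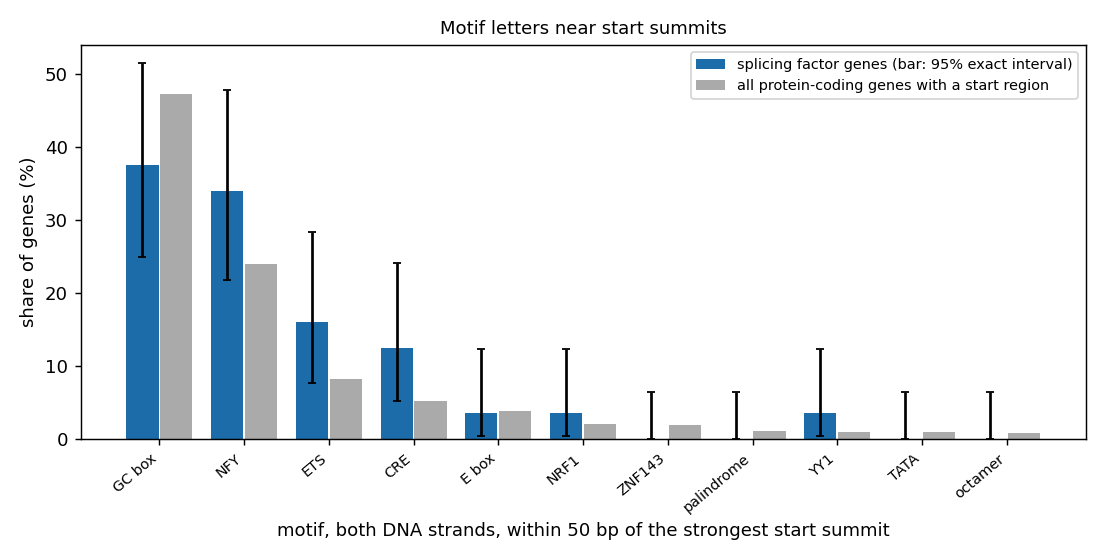
Share of genes (y axis, percent) with each motif (x axis) within 50 bp of the strongest start summit, for the 56 splicing factor genes with a start region (blue, with 95% exact intervals) and for all 16254 protein-coding genes with one (grey). CCAAT, ETS and CRE letters were more frequent at splicing factor genes and GC box letters less, and each of these 4 intervals includes the share of all genes; within 100 bp the intervals for CCAAT, ETS and CRE letters lie above it.

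A run of at least 5 pyrimidines (C or T) that holds the canonical start base, as in the terminal oligopyrimidine tract of translation genes, was found at 10 of 62 members (16.1%), against 7.84% of all protein-coding genes and 73.3% of the 86 cytosolic ribosomal protein genes. It was at 5 of 11 Sm and snRNP genes: SNRPD2 with a run of 13, SNRPA with 8, SNRPE and SNRPB2 with 6 each and SNRPD1 with 5. The other 5 were SF3A2, HNRNPA1L2, SRSF9, HNRNPA0 and HNRNPF.

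At least 2 start regions were listed at 23 of 62 members (37.1%), against 31.3% of all protein-coding genes. Among genes with a start region the shares were close, 41.1% of 56 members and 38.6% of all. Splicing factor genes also have more annotated starts, with a median of 8 against 5 for all genes. The further regions of members numbered 25, with a median fold of 4.29 (2.27 to 12.5) and a median width of 413 bp. The 2 strongest were far from the canonical start. SRSF11 had 12.5 in a region 15748 bp upstream, at an outer start that faces LRRC40, beside 14.5 at its canonical start. SRSF5 had 11 in a region 39949 bp upstream, also at an outer start, beside 11.9. SRSF9 and HNRNPH1 had their strongest region at the outer start and a weaker one at the canonical start. For SRSF9 these were 11.3 and 8.79, each with its summit within 1 kb of an annotated start of DYNLL1. For HNRNPH1 they were 10.0 and 5.64.

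Apart from that of SRSF3, described with its poison exon, the remaining further regions were mostly within 2 kb of the canonical start. They were those of HNRNPU (7.72), SF3B4 (7.29), HNRNPDL (7.05), HNRNPLL (6.55), SF3B3 (5.48), U2AF1L4 (4.41), HNRNPUL1 (4.29), HNRNPD (4.09), SNRPF (3.80), U2AF1 (3.60), SNRPC (3.46), HNRNPAB (2.88), HNRNPA2B1 (2.77), HNRNPL (2.77), SNRPD2 (2.60) and SF3B5 (2.27). HNRNPF had 2 further ones, of 5.48 at 11867 bp inside the gene and of 3.11 close to its start, and SNRPA1 also had 2, of 3.94 at 6139 bp inside and of 2.85. SF3B5 thus held both the highest and the lowest value, with 18.5 at its start and 2.27 in a separate region upstream.

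Body regions were less frequent at splicing factor genes than over all genes: 19 of 62 had at least 1 (30.6%, exact interval 19.6 to 43.7%), against 55.2% of all protein-coding genes. Low shares were also found at 86 other core spliceosome genes (29.1%), 86 cytosolic ribosomal protein genes (23.3%) and 48 proteasome genes (33.3%). Of 51 other splicing regulators, 68.6% had at least 1. Splicing factor genes are short, with a median length of 14684 bp against 27471 bp. Per 100 kb of gene there were 2.46 body regions at splicing factor genes and 4.92 over all genes. The same count was 2.38 at the other core spliceosome genes, 3.61 at ribosomal protein genes, 3.18 at proteasome genes and 5.23 at other splicing regulators. By length, the shares were 1 of 10 members (10.0%) and 7.87% of all genes up to 5 kb, 3 of 23 (13.0%) and 26.1% between 5 and 15 kb, 4 of 13 (30.8%) and 47.3% between 15 and 30 kb, and 11 of 16 (68.8%) and 76.6% between 30 and 100 kb.

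The 30 body regions had a median fold of 5.02 (2.51 to 13.5) and a median width of 398.5 bp, close to the 447 bp of all regions. Of these, 20 lay in introns of the canonical transcript, 1 in a coding exon (exon 7 of HNRNPUL2, fold 3.20), 2 in untranslated exon sequence (HNRNPA0 with 2.77 and SRSF8 with 5.98) and 7 outside the canonical transcript. The strongest was in intron 1 of HNRNPA1L3, 83741 bp from its start, with a fold of 13.5 in 969 bp (chr16:51636656-51637624). This gene, which has no start region, held 4 more, of 5.33, 4.58, 4.26 and 3.09. SRSF4 held one of 9.0 in its first intron, 17137 bp from the start and 1026 bp wide (chr1:29164279-29165304). HNRNPF held 8.92 and 4.87, SNRPF 8.42, HNRNPD 7.69, HNRNPM 6.70, and HNRNPLL 6.50 and 5.33.

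Lower values were found at SF3B2 (5.69), SRSF11 (5.32), U2AF2 (5.18), HNRNPA3 (3.99), SRSF5 (3.83), SRSF9 (3.67) and SF3B1 (3.63). HNRNPA2B1 held 3 weak ones, of 2.51, 2.72 and 2.99, between 11964 and 14224 bp from its start. The readthrough gene HNRNPUL2-BSCL2 held 5, but 4 of them lay at starts of BSCL2, and the last is the exon 7 region that it shares with HNRNPUL2.

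**Figure D4:**
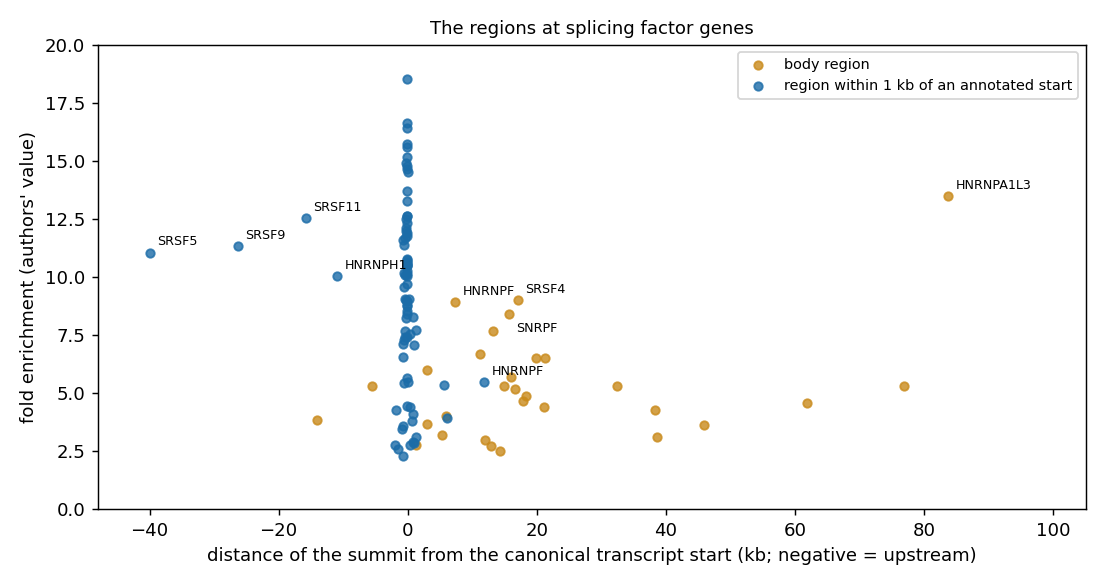
Fold enrichment (authors' value, y axis) of the 110 regions at splicing factor genes by distance of the summit from the canonical start in kb (x axis, negative upstream); orange points are the 30 body regions and blue points the 80 start regions. Most start regions stand at 0, with outer starts of SRSF5, SRSF9, SRSF11 and HNRNPH1 to the left, and the body regions range between 2.51 and 13.5, the highest in HNRNPA1L3.

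Most exons of NMD transcripts outside the canonical exons, taken here as candidate poison exons, carried no accessible region. GENCODE annotates 43 such exons or exon parts of up to 1500 bp in NMD transcripts of 25 of the 62 members. They lie outside every exon of the canonical transcript, and first exons are left out. Other transcripts may use them as well, and whether each brings in an early stop codon was not examined. Of the 21 that lie over 1 kb from every annotated start, none was under a region (exact upper limit 16.1%), against 3.96% of 7270 such exons in all protein-coding genes. Over all 43, the median distance to the nearest region was 4188 bp, and 5 were within 1 kb of one. Of the 16 in SR genes, those of SRSF2, SRSF4, SRSF6, SRSF7, SRSF9, SRSF10, SRSF11 and SRSF12 carried no region. The nearest misses were an exon of SRSF6, 527 bp from its promoter region, and one of SRSF4, 586 bp from the intron region of 9.0.

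The exceptions were 2 exons near annotated starts. SRSF3, which is known to regulate itself through its poison exon, had a region on that exon: the exon is 456 bp long (chr6:36599821-36600276, in intron 3 of the canonical transcript), and the region is 325 bp wide (chr6:36599755-36600079). Its fold was 5.33, with a −log10 p of 24.9, against 12.3 at the SRSF3 promoter. The summit falls on base 93 of the exon, 5551 bp from the canonical start, and 79.7% of the region lies on the exon. Because the annotation also starts a retained-intron transcript 475 bp before this summit, the region counts as a start region by the rule. The splice junctions of this exon are shown because they mark its ends. By position, the region holds the acceptor junction and ends before the donor junction. Each has 20 intron bases in lower case and 10 exon bases in capitals, from the plus strand of the GRCh38 genome.
SRSF3 poison exon acceptor, chr6:36599801-36599830: aaaaatgaaccccgttacagAGTCACCATC
SRSF3 poison exon donor, chr6:36600267-36600296: CCCAAAACTAgtaagtttttcctgcttata
The intron letters ag before and gt after the exon are the usual splice site dinucleotides. In U2AF1L4, an NMD exon of 113 bp (chr19:35744626-35744738) was overlapped by a region with a fold of 4.41, whose summit lay outside the exon and 129 bp from an annotated start.

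**Figure D5:**
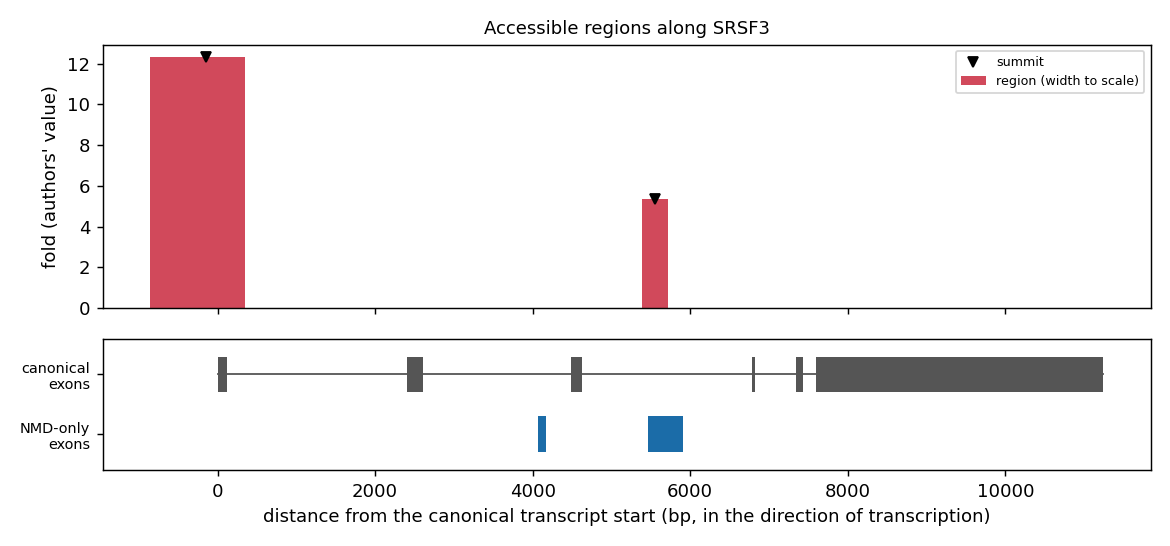
Regions at SRSF3 (upper panel, bars to scale in width, height is the authors' fold, triangles are summits) by distance from the canonical start in bp. The lower panel has the exons of the canonical transcript (grey) and exons of NMD transcripts outside them (blue, labelled NMD-only). The long NMD exon is also overlapped by 2 retained-intron transcripts. The promoter region reaches 12.3, and the second region, 5.33, covers the first 259 of the 456 bp of the long NMD exon.

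Other genes of the pathway had start regions as regularly. All 86 other core spliceosome genes examined had one, with a median start fold of 11.9, and 75 of them were above the median of all genes. They ran between 3.53 at SART3, a U4/U6 recycling factor, and 20.0 at CWC15, a component of the spliceosome's catalytic core. All 51 other splicing regulators had one too, with a median of 10.3; the lowest was 4.08 at PCBP1, a poly(C) binder, and the highest 18.4 at RBFOX2, a regulator of alternative exons. Of the 7 SR protein kinases, 6 had one, with 7.64 at CLK2 as the lowest and 9.88 at CLK3 as the highest, and SRPK3 had none. Other housekeeping sets lay in the same range: 84 of 86 cytosolic ribosomal protein genes had a start region, with a median of 10.1, and 47 of 48 proteasome genes, with a median of 11.3. The splicing factor genes, with 10.3, therefore stood within the range of these sets, and no test of a difference between them was possible in 1 list.

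Processed pseudogenes, inserted copies of an mRNA, that are named for splicing factor genes rarely had a listed region. Of 192 such pseudogenes, 7 had a region within 1 kb of their start (3.65%, exact interval 1.48 to 7.37%), against 9.59% of all 10658 processed pseudogenes. How reads that match several places were treated is not given, and its part in these shares was not tested. HNRNPA1 alone has 72, SNRPG 20 and SNRPC 18. The 7 were HNRNPA3P8 with a fold of 19.6, HNRNPDP2 with 9.27, HNRNPKP3 with 8.99, SNRPCP3 with 8.54, SNRPGP6 with 6.07, SNRPGP10 with 5.90 and HNRNPA3P7 with 3.78. The HNRNPA3P8 region, 876 bp upstream of the pseudogene (chr3:80215100-80215758), is stronger than the start region of any of the 62 members.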

How the data were processed

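ATAC-seq of 2 H1 samples was deposited as 1 shared peak list on GRCh38, per the submitters' processing notes. Its deposited columns hold a score, the fold enrichment (a ratio to a background not stated), the −log10 p of each peak and the summit. No source used here gives the aligner, the caller or the read depth. The file's name describes an overlap list, and the labels do not state how peaks of the 2 samples were combined. The samples are not separate in the list.

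Rows with the same bounds were joined to 1 region. Summits were placed against all GENCODE 44 transcript starts (within 1000 bp) with Python 3.11.15, pandas 2.3.3, SciPy 1.17.1 and pysam 0.24.0. The placing was tested on simulated data. Shares have 95% exact binomial (Clopper-Pearson) intervals and medians rank intervals over genes. These intervals cover counting error only, and genes are not replicates. With 1 group no test was possible.

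The symbol rule uses no measured value, but the set and the other lists were proposed with earlier results of these data known. Named in full were the 5 highest and 5 lowest members with a region, each family's highest and lowest, members with no start region, with 3 or more body regions or a region on a poison exon, and copies. All 62 are named, and 56 matched the RefSeq promoter table. Of the other pathway lists, the highest and lowest genes are named. Alternatives were a 500 bp window, canonical starts, basic transcripts, the strongest summit of each region, and rows with a −log10 p at or above the median (22.2). Added after seeing the data was a count without the 6 copies.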

Additional observations from a re-analysis of the deposited data

How the results depend on the processing

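The share of members with a start region and the median start fold kept within their intervals under all 5 planned settings. The exceptions among the main results follow. With canonical starts only, the median summit lay at -129 bp (negative is upstream), against -67 bp over all genes. With canonical starts only, and again with basic transcripts only, 1 body region lay on a poison exon, that of SRSF3, against 0 in the main count, because the retained-intron start near it is then no longer a start. With rows at or above the median −log10 p, 19.4% of members had a body region, against 45.3% of all genes. Without the 6 HNRNPCL and HNRNPA1L copies, a setting chosen after seeing the data, 100% of the 56 members left had a start region. The other 33 values of main results and 45 of 48 values of single families and motifs did not move beyond their limits. For the number of distinct regions, 110, these limits were a band of 73.3 to 165 and not an interval of counting error. With rows at or above the median −log10 p, 86 regions were left. The 3 that did were the GC box share, 62.5% within 100 bp of the summit (64.1% of all genes), the CCAAT share, 12.5% around canonical starts (8.93% of all genes), and the TATAAA share, 7.14% there (3.32%). Within 100 bp of the summit the exact intervals excluded the share of all genes for ETS letters (26.8% against 13.6%), CCAAT (46.4% against 31.7%) and CRE letters (17.9% against 8.40%), and around canonical starts for ETS letters (23.2% against 9.83%); within 50 bp of the summit they did so for none of the 11 motifs. By gene, SNRPD3 had 4.97 with the 500 bp window against 11.6, and HNRNPH1 5.64 with canonical starts only against 10.0. Leaving out a replicate was not possible, because both share 1 list. No paired analysis was possible because there is 1 group and no test. The list holds only regions above the caller's threshold, so a gene at 0 was not listed and need not be closed.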
